A study of Mus musculus with 24 samples.

Results

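The 7 genes described here were 5 genes that glucocorticoids are known to induce, Tsc22d3, Fkbp5, Fam107a, Sgk1 and Zbtb16, and the 2 liver metallothioneins, Mt1 and Mt2, of 54532 gene rows in the count table. They were taken by name from that table. Fam107a was selected on its fall in livers without Cpt2, which is one of the largest in these data, and its changes are therefore given as a description in every comparison except Rab30KO against Rab30 Ctrl, which shares no liver with those falls. The other 6 genes were chosen as known targets of the hormone, with results of these data already known. RNA-seq had been done on 24 livers of male C57/BL6J mice, 8 to 10 weeks old, each fasted for 24 h. In all, 6 groups of 4 livers were compared: Rab30KO, with Rab30 exon 4 deleted in the whole body; Rab30 Ctrl, the wild-type littermates; Rab30 L-/-, with floxed Rab30 and albumin-Cre; Cpt2 L-/-, with floxed Cpt2 and albumin-Cre; DKO, with both floxed genes and albumin-Cre; and double-floxed Rab30;Cpt2 littermates of the DKO without Cre, called floxed controls below. Albumin-Cre acts in hepatocytes, and the other cells of those livers keep both genes. No fed liver was part of the series, so each value is a level in the fasted state.

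Corticosterone, the main glucocorticoid of the mouse, rises in fasting and binds the glucocorticoid receptor (Nr3c1) in hepatocytes, which then moves to the nucleus and binds DNA at glucocorticoid response elements. In fasted liver the receptor raises genes of gluconeogenesis and amino acid breakdown together with a set of feedback and signal genes found in many tissues, to which Tsc22d3, Fkbp5, Sgk1 and Zbtb16 belong. Metallothioneins are small, cysteine-rich proteins that bind zinc and copper, and their genes respond both to metals, through the factor Mtf1 at metal response elements, and to glucocorticoids.

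Each library held 11801027 to 24497738 counted reads. The labels were checked in the counts of the targeted genes. Rab30 lay at 5.39 to 17.4 CPM (read counts scaled to library size by the trimmed mean of M-values) in Rab30KO and 6.64 to 30.1 CPM in Rab30 Ctrl, at 25.9 to 44.6 CPM in the floxed controls and 10.4 to 26.6 CPM in Rab30 L-/-, and at 122 to 188 CPM in Cpt2 L-/- and 101 to 231 CPM in DKO, which overlapped. Cpt2 lay at 128 to 139 CPM in the floxed controls, which Cpt2 L-/- overlapped at 95.3 to 167 CPM, while all DKO livers were lower, at 96.1 to 120 CPM, and all Rab30 L-/- livers higher, at 170 to 268 CPM. Counts over a whole gene do not test a deletion of part of it, so the groups are named as labelled. The 5 hepatocyte markers in the table, Alb among them, had a summed level of 41342 to 118909 CPM over the 24 livers. The labels name the floxed controls as littermates of the DKO, and Rab30 Ctrl as littermates of Rab30KO, but do not say which animals shared a litter, so p-values measure the spread between these livers.

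Tsc22d3 encodes GILZ, a leucine zipper protein that carries part of the anti-inflammatory action of glucocorticoids. It passed the test in more comparisons than any other of the 7 genes, of which Fam107a was tested in only 1 comparison. It was low in all 3 groups with albumin-Cre, lowest where Cpt2 was lost, and overlapping between Rab30KO and its controls. The gene (ENSMUSG00000031431) lies at chrX:140539528-140600659 on the minus strand of GRCm38. RefSeq gives it 3 start sites. The 250 bases before the most distal of them, at chrX:140600523-140600772 on the minus strand of GRCm38.p6, are shown because they hold the receptor's half-site, AGAACA or its reverse complement TGTTCT, in capitals, 185 bases before the start.
Tsc22d3 promoter: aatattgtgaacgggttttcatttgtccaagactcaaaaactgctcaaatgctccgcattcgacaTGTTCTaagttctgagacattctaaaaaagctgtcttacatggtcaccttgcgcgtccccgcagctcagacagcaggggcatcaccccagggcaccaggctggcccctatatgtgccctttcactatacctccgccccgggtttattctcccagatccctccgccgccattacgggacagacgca
The windows before the other start sites of Tsc22d3 hold no half-site. Of 32851 RefSeq promoter windows of this length, 16.1% hold that half-site on either strand, so a match describes the letters and not a bound site.

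Tsc22d3 stood at 214, 210, 262 and 189 CPM in the floxed controls. In Rab30 L-/- it was at 127, 94.9, 114 and 84.3 CPM. In Cpt2 L-/- it was at 26.0, 47.2, 46.1 and 38.1 CPM. The lowest floxed control was thus above the highest liver of either single-knockout group, and the 2 single knockouts did not overlap each other. In DKO Tsc22d3 was at 35.0, 55.3, 71.5 and 62.1 CPM, which overlapped Cpt2 L-/- and lay below all Rab30 L-/- livers. Over all genes tested, the groups did not overlap for 6.38% of genes in Rab30 L-/-, 26.7% in Cpt2 L-/- and 20.5% in DKO against the floxed controls, and for 31.5% in DKO against Rab30 L-/-. That share was not computed for the single knockouts against each other. Rab30 Ctrl livers had 250, 212, 142 and 141 CPM, and Rab30KO livers 178, 208, 166 and 239 CPM, with full overlap.

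Against the floxed controls, Tsc22d3 fell 2.10-fold in Rab30 L-/- (log2 fold change -1.07, SE 0.17, adjusted p = 0.0177, edgeR's quasi-likelihood test, p-values Benjamini-Hochberg adjusted across the genes tested; a gene passed at an adjusted p under 0.05 and a change of at least 1.2-fold). It fell 5.61-fold in Cpt2 L-/- (-2.49, SE 0.20, adjusted p = 3.34e-06, edgeR) and 3.93-fold in DKO (-1.97, SE 0.21, adjusted p = 0.000115, edgeR). The same 4 floxed controls serve all 3 comparisons. In DKO against Rab30 L-/- the fall was 1.87-fold (-0.91, SE 0.21, adjusted p = 0.00725, edgeR), and in DKO against Cpt2 L-/- the log2 difference was 0.52 (SE 0.23, adjusted p = 0.220, edgeR). The change from Cpt2 L-/- to DKO therefore differed from the change from floxed controls to Rab30 L-/-, by 1.59 on the log2 scale (SE 0.29, adjusted p = 0.00521, edgeR interaction term on 16 livers). All 3 groups with albumin-Cre differ from the floxed controls in Cre as well as in the deleted gene, and the single knockouts are also not named as their littermates or as double-floxed. Cpt2 L-/- and DKO both carry Cre. In each single knockout against the floxed controls and in the interaction, the deleted gene, Cre and these differences of breeding cannot be told apart. In DKO against the floxed controls, named as littermates, the deleted genes and Cre cannot be told apart. In DKO against either single knockout Cre is shared, but the animals are not named as littermates, so the deleted gene and breeding cannot be told apart. In Rab30KO against Rab30 Ctrl the log2 difference was 0.08 (SE 0.21, adjusted p = 0.9999, edgeR). The call in Rab30 L-/- was lost without replicate 2 (log2 fold change -1.02, adjusted p = 0.0666, edgeR) or replicate 4 (-0.98, adjusted p = 0.0712, edgeR) of that group.

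**Figure D1:**
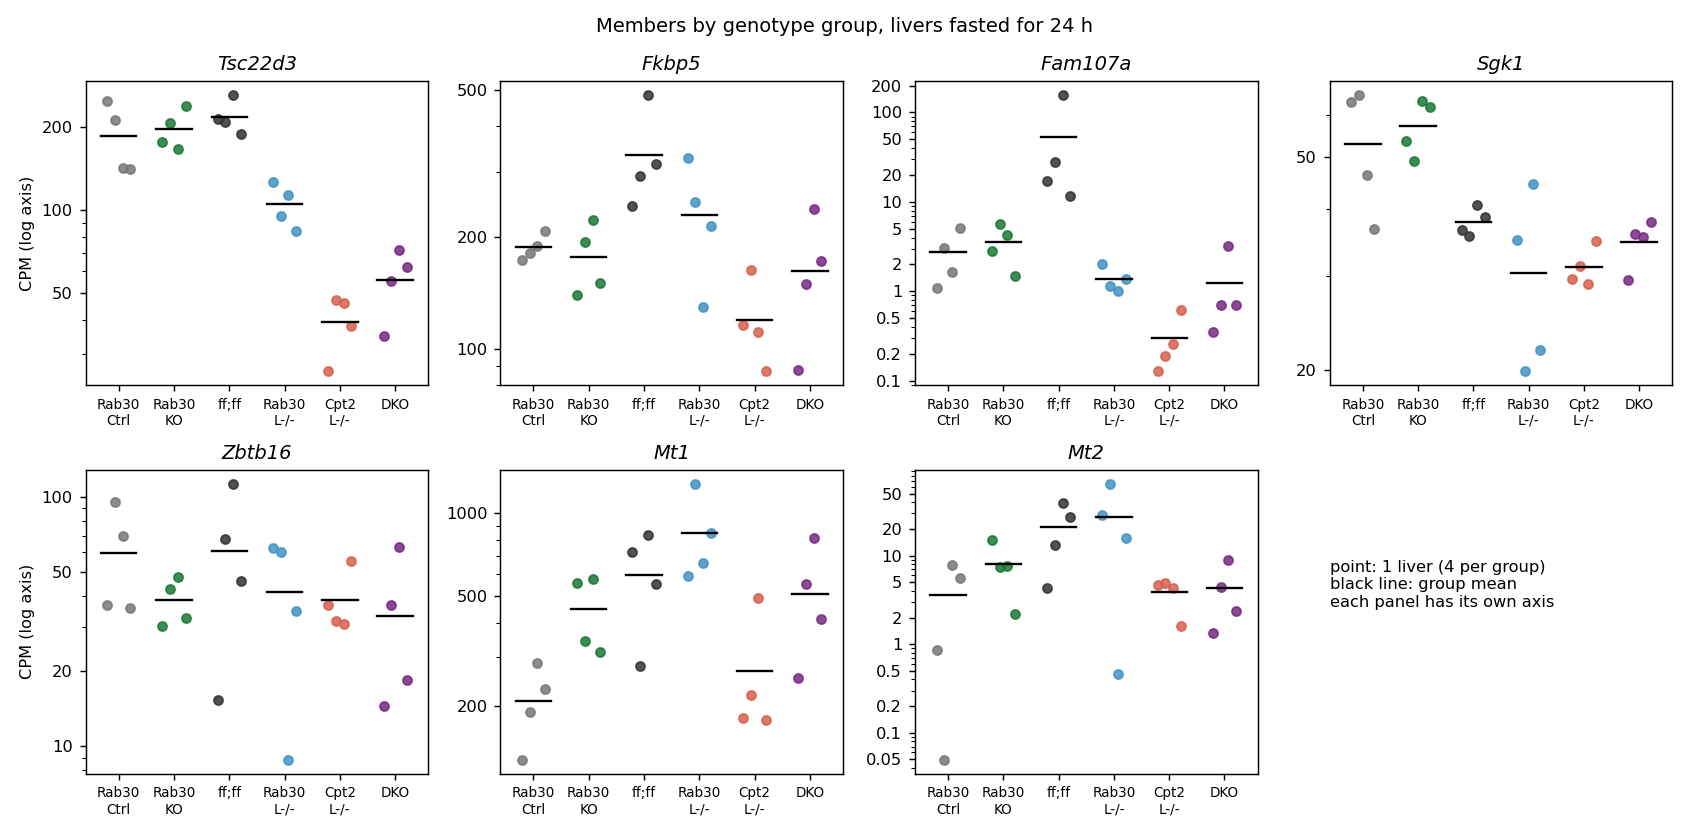
CPM on log axes for the 7 genes, 1 point for each of 24 livers in 6 genotype groups, with the group mean as a black line. Tsc22d3 lies at 189 to 262 CPM in the floxed controls (ff;ff) and at 26.0 to 47.2 CPM in Cpt2 L-/-, while Fam107a exceeds 5.61 CPM in floxed controls only.

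Fkbp5 encodes FKBP51, a co-chaperone that lowers the receptor's affinity for the hormone and so closes a feedback loop. It was highest in the floxed controls and lowest in Cpt2 L-/-. The gene (ENSMUSG00000024222) lies at chr17:28399094-28517527 on the minus strand, and the 250 bases before its RefSeq start hold no AGAACA on either strand. It overlaps 4 other annotated genes. One of them, the antisense transcript AC154912.1, had 56 to 387 reads a library against 1252 to 6950 for Fkbp5, and whether the counting used strand is not given in the sources used here.

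Fkbp5 stood at 243, 293, 484 and 315 CPM in the floxed controls. It was at 116, 163, 111 and 87.0 CPM in Cpt2 L-/- and at 87.4, 150, 238 and 172 CPM in DKO. Neither group reached the lowest floxed control, and both overlapped each other. Over all genes tested, 26.7% did not overlap between Cpt2 L-/- and the floxed controls, and 20.5% between DKO and the floxed controls. In Rab30 L-/- the livers had 327, 248, 129 and 214 CPM and overlapped the floxed controls. Rab30 Ctrl had 173, 181, 189 and 207 CPM and Rab30KO 139, 194, 223 and 150 CPM, so the wild-type controls also lay below every floxed control. The share of all genes for which these control groups did not overlap was not computed.

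Fkbp5 fell 2.82-fold in Cpt2 L-/- against the floxed controls (log2 fold change -1.49, SE 0.24, adjusted p = 0.000596, edgeR) and 2.07-fold in DKO (-1.05, SE 0.29, adjusted p = 0.0328, edgeR). The fall in DKO was lost without any one of DKO replicates 1, 2 and 4 or floxed control replicates 2, 3 and 4, with adjusted p values of 0.0523 to 0.0815 and log2 fold changes of -1.11 to -0.82 (edgeR), and with no filter on low counts (adjusted p = 0.111, edgeR). In Rab30 L-/- the log2 difference was -0.54 (SE 0.29, adjusted p = 0.516, edgeR). DKO and Cpt2 L-/- differed by 0.45 (SE 0.29, adjusted p = 0.395, edgeR), and Rab30KO and Rab30 Ctrl by -0.09 (SE 0.18, adjusted p = 0.9999, edgeR). The interaction term was 0.99 (SE 0.44, adjusted p = 0.209, edgeR).

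Fam107a encodes an actin-associated protein that stress and glucocorticoids induce in brain. The gene (ENSMUSG00000021750) lies at chr14:8296274-8318023 on the minus strand, and RefSeq gives 3 promoter windows, of which 2 start 2 bases apart. The window at chr14:8309780-8310029 on the minus strand of GRCm38.p6 is shown because it holds the half-site, in capitals, at 158 and 110 bases before the start.
Fam107a promoter: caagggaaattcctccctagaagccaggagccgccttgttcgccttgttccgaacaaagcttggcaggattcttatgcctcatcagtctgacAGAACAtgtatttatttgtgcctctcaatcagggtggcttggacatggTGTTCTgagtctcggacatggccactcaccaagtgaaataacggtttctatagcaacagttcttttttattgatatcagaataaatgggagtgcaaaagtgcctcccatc
The most distal window of Fam107a holds none.

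Fam107a stood at 17.1, 27.8, 157 and 11.6 CPM in the floxed controls. It was at 2.04, 1.15, 1.01 and 1.37 CPM in Rab30 L-/-. In Cpt2 L-/- it was at 0.128, 0.189, 0.259 and 0.624 CPM, which is 2 to 10 reads a library. The floxed controls thus stood apart from all other groups, and 1 of them, replicate 3, was well above the other 3. DKO livers had 0.349, 0.710, 3.19 and 0.704 CPM. Rab30 Ctrl livers had 1.10, 3.06, 1.64 and 5.09 CPM and Rab30KO livers 2.80, 5.61, 4.26 and 1.49 CPM. The wild-type controls, which carry no floxed allele and no Cre, were therefore also below every floxed control, and they overlapped Rab30 L-/- and DKO. The difference between the 2 control groups was not tested, and the share of all genes for which they did not overlap was not computed.

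These values chose the gene, so the log2 differences from the floxed controls of -7.45 in Cpt2 L-/- (SE 1.33), -5.46 in DKO (SE 1.25) and -5.29 in Rab30 L-/- (SE 1.10) are given with no test. Without floxed control replicate 3 they were -5.94, -3.95 and -3.79. DKO and Rab30 L-/- differed by -0.16 (SE 0.60), a value of either sign once 1 liver was left out. DKO and Cpt2 L-/- differed by 2.01 (SE 0.74), or 0.97 without DKO replicate 3, also with no test, since the low values in both groups led to the choice of the gene. The comparison that did not enter the choice, Rab30KO against Rab30 Ctrl, had a log2 difference of 0.38 (SE 0.51, adjusted p = 0.9999, edgeR) and did not pass.

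Sgk1, a kinase that regulates sodium channels and transporters, and Zbtb16 (PLZF), a transcriptional repressor, passed in no comparison. Sgk1 (ENSMUSG00000019970) lies at chr10:21882184-21999903 on the plus strand with 6 RefSeq promoter windows. One of them, at chr10:21993640-21993889, is shown because it holds the full palindrome, AGAACA followed after any 3 bases by TGTTCT, which occurs in 3 of the 32851 windows.
Sgk1 promoter: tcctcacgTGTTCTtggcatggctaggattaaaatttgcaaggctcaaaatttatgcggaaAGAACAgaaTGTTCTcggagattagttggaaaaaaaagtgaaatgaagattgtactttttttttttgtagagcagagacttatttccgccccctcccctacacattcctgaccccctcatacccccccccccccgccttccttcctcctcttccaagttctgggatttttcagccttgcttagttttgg
Its capitals are 3 half-sites, at 242, 189 and 180 bases before the start, of which the last 2 are the arms of the palindrome. Zbtb16 (ENSMUSG00000066687) lies at chr9:48654297-48836222 on the minus strand.

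Sgk1 kept to a narrow range in the floxed controls, at 36.6, 35.6, 40.6 and 38.7 CPM, and in Cpt2 L-/-, at 29.6, 31.2, 28.9 and 34.8 CPM. These groups did not overlap, as was so for 26.7% of all genes tested, with a log2 difference of -0.29 (SE 0.13, adjusted p = 0.126, edgeR). DKO had 29.5, 35.9, 35.5 and 37.9 CPM and Rab30 L-/- 35.0, 19.9, 44.6 and 21.8 CPM, both overlapping the floxed controls. Its highest levels were in Rab30 Ctrl, at 63.4, 65.4, 46.3 and 36.8 CPM, and Rab30KO, at 53.7, 49.2, 63.8 and 62.1 CPM. Zbtb16 varied widely within groups. It ranged from 15.4 to 113 CPM in the floxed controls, 8.81 to 62.5 CPM in Rab30 L-/-, 30.9 to 55.4 CPM in Cpt2 L-/- and 14.5 to 63.0 CPM in DKO. Its ranges were 35.7 to 95.7 CPM in Rab30 Ctrl and 30.3 to 47.9 CPM in Rab30KO, with a log2 difference of -0.63 (SE 0.31, adjusted p = 0.9999, edgeR).

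**Figure D2:**
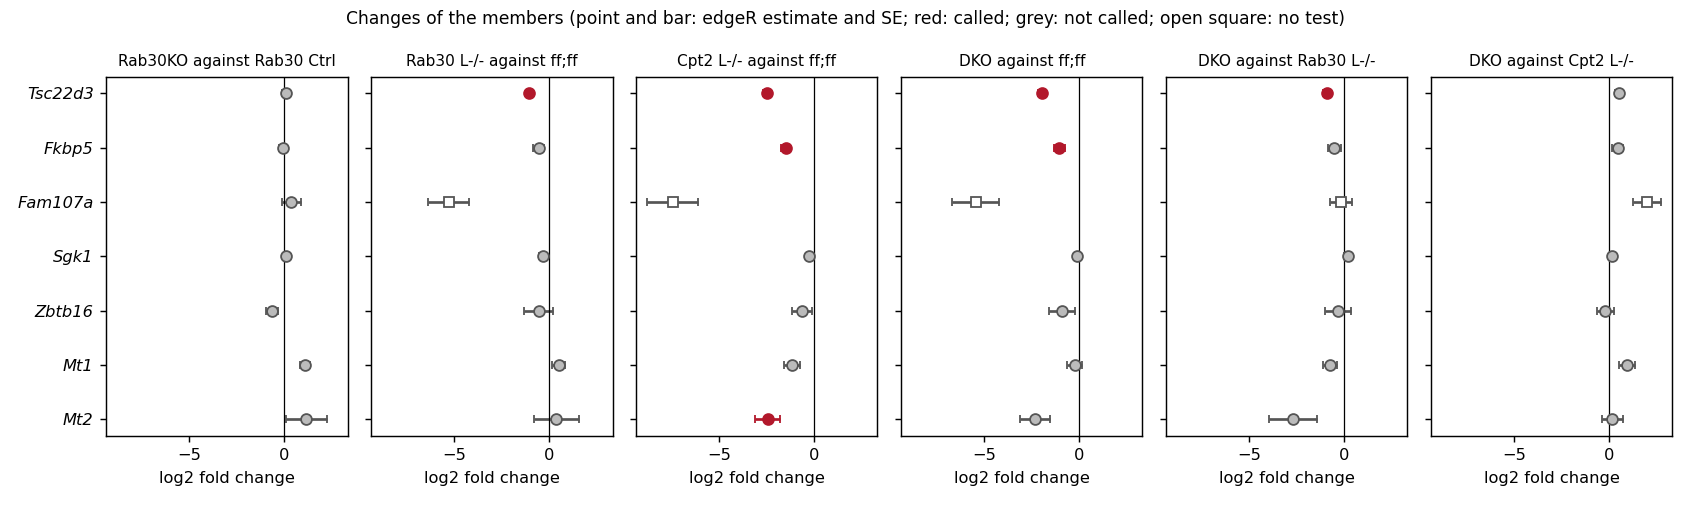
Log2 fold changes of the 7 genes in 6 comparisons, with edgeR estimates and their SE as points and bars; red points passed an adjusted p of 0.05 and 1.2-fold, grey points did not, and open squares carry no test. Tsc22d3 is red in 4 comparisons, Fkbp5 in 2 and Mt2 in 1.

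Mt1 and Mt2 lie side by side on chromosome 8. Mt2 (ENSMUSG00000031762) is at chr8:94172664-94173568 and Mt1 (ENSMUSG00000031765) at chr8:94179082-94180327, both on the plus strand and 5513 bases apart. Both had lower means in Cpt2 L-/- than in the floxed controls, and only Mt2 passed the test. Their promoters are shown because Mtf1 is known to act on both genes. Capitals mark the metal response element, searched as TGCACNC or TGCGCNC on both strands, which stands 223, 128 and 50 bases before the start of Mt2 (window chr8:94172368-94172617) and 23 bases before that of Mt1 (window chr8:94178839-94179088, both GRCm38.p6).
Mt2 promoter: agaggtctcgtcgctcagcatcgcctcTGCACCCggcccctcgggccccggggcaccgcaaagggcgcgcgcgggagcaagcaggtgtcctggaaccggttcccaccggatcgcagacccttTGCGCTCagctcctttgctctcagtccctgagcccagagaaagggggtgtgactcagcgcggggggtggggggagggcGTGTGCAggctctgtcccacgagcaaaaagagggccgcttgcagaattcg
Mt1 promoter: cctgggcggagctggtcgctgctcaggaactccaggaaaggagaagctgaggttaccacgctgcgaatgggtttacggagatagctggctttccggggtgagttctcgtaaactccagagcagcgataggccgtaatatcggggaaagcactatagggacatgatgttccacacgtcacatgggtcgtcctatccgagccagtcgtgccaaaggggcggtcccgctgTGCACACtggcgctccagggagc
At least 1 such element is in 21.4% of the 32851 windows and at least 3 are in 1.26%. Bases outside a window, such as those after the start, were not searched, so these counts do not compare Mt1 with Mt2. Neither window holds AGAACA on either strand.

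Mt1 stood at 725, 279, 834 and 552 CPM in the floxed controls. In Cpt2 L-/- it was at 181, 220, 493 and 177 CPM, with 1 liver well above the other 3. In DKO it was at 253, 553, 814 and 412 CPM. Both groups overlapped the floxed controls, with log2 differences of -1.18 (SE 0.41, adjusted p = 0.0634, edgeR) and -0.24 (SE 0.39, adjusted p = 0.734, edgeR). The first of these passed without Cpt2 L-/- replicate 3, the high liver (-1.64, adjusted p = 0.00466, edgeR), or without floxed control replicate 2 (-1.41, adjusted p = 0.0123, edgeR). With all livers it passed by limma-voom (adjusted p = 0.0304) and in an edgeR fit over all 24 libraries (0.0398). Rab30 L-/- held the highest levels, at 594, 1281, 658 and 851 CPM, and differed from the floxed controls by 0.50 (SE 0.33, adjusted p = 0.614, edgeR). DKO and Rab30 L-/- differed by -0.73 on the log2 scale (SE 0.36, adjusted p = 0.152, edgeR), and the difference passed without DKO replicate 3 (-1.04, adjusted p = 0.0437, edgeR).

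In the whole-body comparison the groups did not overlap for 1 of the 7 genes, Mt1, beside 1.31% of the 13656 genes tested. Rab30 Ctrl livers had 127, 190, 286 and 231 CPM and Rab30KO livers 559, 345, 575 and 313 CPM. All 4 Rab30KO livers were above all 4 controls, with a log2 difference of 1.10 (SE 0.27) and an unadjusted p of 0.00182, but over all genes tested the adjusted p was 0.9999 (edgeR). It passed under no alternative, where the lowest adjusted p was 0.0863 (DESeq2).

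Mt2 stood at 4.37, 13.2, 39.6 and 27.0 CPM in the floxed controls. It was at 4.61, 4.91, 4.34 and 1.62 CPM in Cpt2 L-/- and at 1.33, 4.45, 9.04 and 2.39 CPM in DKO. Only the lowest floxed control overlapped Cpt2 L-/-. Mt2 fell 5.49-fold in Cpt2 L-/- (log2 fold change -2.46, SE 0.66, adjusted p = 0.0293, edgeR), and its difference of -2.31 in DKO did not pass (SE 0.79, adjusted p = 0.0956, edgeR), though it did by DESeq2 (0.0248) and without floxed control replicate 1 (0.0304). The call in Cpt2 L-/- was lost without any one Cpt2 L-/- liver or without floxed control replicate 4, where the adjusted p lay between 0.0514 and 0.0724 (edgeR), and also in a fit over all 24 libraries (0.110) and with no filter on low counts (0.0923).

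The remaining groups spread widely for Mt2. Rab30 L-/- had 29.1, 65.2, 0.461 and 15.6 CPM, so 1 liver lay far below the other 3. Rab30 Ctrl had 0.870, 0.0494, 7.90 and 5.63 CPM, and Rab30KO 14.9, 7.51, 7.58 and 2.20 CPM. The low Rab30 L-/- liver, replicate 3, had 11 Mt2 reads beside 15685 of Mt1, and the low Rab30 Ctrl liver, replicate 2, had 1 Mt2 read beside 3855 of Mt1. These were also the 2 deepest libraries, with 24497738 and 20401129 reads. The log2 difference of Mt2 between Rab30 L-/- and the floxed controls was 0.37 (SE 1.196, adjusted p = 0.941, edgeR), and it changed sign without Rab30 L-/- replicate 2.

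Per length, Mt1 was the most abundant of the 7 genes in every group, with group means of 166 to 684 FPKM (fragments per kilobase of gene scaled to library size, the authors' values). Mt2 had means of 6.13 to 47.5 FPKM. The annotated exonic length of Mt1 is 1246 bases, which is its whole span, and that of Mt2 is 588, so ratios of their FPKM depend on these lengths. The FPKM of Mt1 was a median of 9.95 times that of Mt2 in the floxed controls, 36.3 times in Cpt2 L-/-, 70.0 times in DKO, 17.6 times in Rab30 L-/-, 28.7 times in Rab30KO and 44.2 times in Rab30 Ctrl. Of the 588 exonic bases of Mt2, 432 lie inside the single exon of an antisense gene, Gm45774, which had 0 to 53 reads a library. Where 2 annotated exons overlap, reads can be left out or given to either gene, and how the counting treated them, and whether it used strand, is not given in the sources used here, so the level of Mt2 is uncertain. The part of this overlap in the Mt2 values was not tested.

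**Figure D3:**
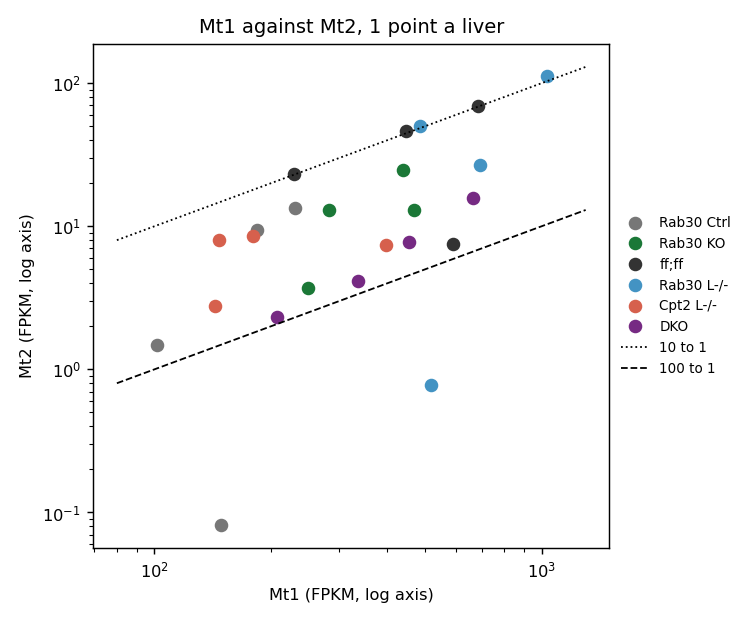
FPKM of Mt2 against FPKM of Mt1 on log axes, 1 point a liver, with lines where Mt1 is 10 and 100 times Mt2. Of the 4 floxed controls 3 lie on the 10 to 1 line, and the 2 livers with 1 and 11 Mt2 reads lie far below the rest.

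Counted together, 3 of the 6 tested genes fell in Cpt2 L-/- against the floxed controls (Tsc22d3, Fkbp5 and Mt2), where 11.9% of all genes tested fell. In DKO 2 of 6 fell (Tsc22d3 and Fkbp5), against 8.24% of all genes. In Rab30 L-/- 1 of 6 fell, Tsc22d3, against 0.18% of all genes, and in DKO against Rab30 L-/- again 1 of 6, against 15.8%. In the interaction 1 of 6 was higher, against 2.2%. No member rose in any comparison of 2 groups. The medians of the log2 fold changes over the 6 genes were -1.34 in Cpt2 L-/-, -0.97 in DKO and -0.43 in Rab30 L-/-, where those over all genes tested were between -0.02 and 0.00. In Rab30KO against Rab30 Ctrl 0 of 7 passed (edgeR), 1 at an unadjusted p under 0.05 (Mt1) and 0 by DESeq2 or limma-voom, beside 0.022% of all genes. In DKO against Cpt2 L-/- 0 of 6 passed (edgeR), 1 at an unadjusted p under 0.05 (Tsc22d3) and 0 by DESeq2 or limma-voom, beside 2.71% of all genes. The members were chosen with these data known and share their samples, so the counts describe the list only.

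Markers of cell types moved in the same comparisons. Of the 5 hepatocyte markers, Fgb, Alb and Ttr fell in Cpt2 L-/- against the floxed controls (log2 fold changes -1.53, -1.41 and -0.86), where 11.9% of all genes fell, and also in DKO (-1.56, -0.87 and -0.83), where 8.24% fell. In DKO against Rab30 L-/- 3 of the 5 fell, where 15.8% of all genes fell. In the interaction 1 of the 5 was higher, beside 2.2% of all genes, and the highest log2 value of the 5 was 1.04. In Cpt2 L-/- the summed level was 41342 to 52463 CPM against 88811 to 114024 CPM. It was 52736 to 68618 CPM in DKO and 74990 to 86888 CPM in Rab30 L-/-. Of 7 Kupffer cell markers 3 fell in Cpt2 L-/- and 3 in DKO, beside the same 11.9% and 8.24% of all genes, with sums of 136 to 190 CPM and 134 to 157 CPM against 165 to 298 CPM in the floxed controls, and 6 fell in DKO against Rab30 L-/-, beside 15.8%. In Rab30 L-/- against the floxed controls 0 of 7 passed (edgeR), 3 at an unadjusted p under 0.05, beside 0.479% of all genes. Their log2 differences there had a median of 0.82 and a lowest value of 0.25, with a sum of 213 to 633 CPM. Of 5 erythroid markers 4 fell in Cpt2 L-/-, beside 11.9%, where the sum was 87.1 to 165 CPM against 210 to 630 CPM. In DKO 0 passed (edgeR), beside 16.1% of all genes called in either direction, with 1 at an unadjusted p under 0.05 and 0 by DESeq2. The erythroid sum in DKO was 124 to 408 CPM. None of the 8 stellate cell markers passed in any comparison (edgeR), beside 0.022% to 30.7% of all genes called in either direction. At most 2 were at an unadjusted p under 0.05, and at most 2 passed by DESeq2. The stellate sums were 180 to 396 CPM in the floxed controls and 371 to 392 CPM in Cpt2 L-/-. Of 6 endothelial markers 1 fell in Cpt2 L-/-, Clec4g, beside 11.9% of all genes. The only bile duct marker that fell was Sox9. It was 1 of 4 tested in Cpt2 L-/- (-2.26), 1 of 5 in DKO (-1.45) and 1 of 3 in DKO against Rab30 L-/- (-2.01). Of all genes 11.9%, 8.24% and 15.8% fell there. Single calls in lists this short describe the gene only. The summed neutrophil markers were at 0.00 to 15.0 CPM and the lymphocyte markers at 5.65 to 51.4 CPM over the 24 livers. Fewer cells of a type and less RNA per cell cannot be told apart in whole liver, and the part of these markers in the falls of Tsc22d3, Fkbp5 and Mt2 was not tested.

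The genes that supply, bind and clear the hormone were read beside its targets. Of 18 such genes 17 were tested. The receptor Nr3c1 passed in none of the 7 comparisons, with means of 79.0 CPM ± 19.8 (SD, n = 4) in the floxed controls and 58.4 ± 11.7 in Cpt2 L-/- (log2 fold change -0.44, SE 0.20, adjusted p = 0.121, edgeR), 71.6 ± 16.6 in DKO and 83.7 ± 6.91 in Rab30 L-/-. Hsd11b1, which turns inactive 11-dehydrocorticosterone into corticosterone in the hepatocyte, fell from 661 ± 76.7 CPM in the floxed controls to 146 ± 13.7 in Cpt2 L-/- (log2 fold change -2.19, SE 0.15, adjusted p = 1.63e-06, edgeR) and 278 ± 80.3 in DKO (-1.26, SE 0.21, adjusted p = 0.00173, edgeR). All Cpt2 L-/- and DKO livers were below all floxed controls, from which these groups did not overlap for 26.7% and 20.5% of all genes tested. The reductases that inactivate the hormone fell in the same livers. Akr1d1 fell from 227 ± 34.9 CPM to 10.2 ± 4.45 in Cpt2 L-/- (-4.49, SE 0.31, adjusted p = 2.26e-06, edgeR) and 53.6 ± 16.1 in DKO (-2.09, SE 0.22, adjusted p = 0.000106, edgeR). Srd5a1 fell by 1.77 (adjusted p = 0.000136, edgeR) and 1.39 (adjusted p = 0.0403, edgeR) on the log2 scale. Its call in DKO was lost without DKO replicate 1 or 4, without floxed control replicate 1, 2 or 3, or with no filter on low counts. Serpina6, the corticosteroid-binding globulin that hepatocytes secrete, fell by 4.04 in Cpt2 L-/- (SE 0.54, adjusted p = 0.000894, edgeR), from 73.3 ± 36.3 to 4.49 ± 1.73 CPM. In DKO Fkbp4, a co-chaperone that opposes FKBP51, also fell (-0.83, SE 0.18, adjusted p = 0.00735, edgeR).

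DKO livers held more of some of these transcripts than Cpt2 L-/- livers. Akr1d1 was higher by 2.41 on the log2 scale (SE 0.34, adjusted p = 0.0113, edgeR) and Hsd11b1 by 0.94 (SE 0.18, adjusted p = 0.0256, edgeR), 2 of 17 genes beside 1.38% of all genes. The call of Hsd11b1 was lost without any one Cpt2 L-/- liver, without DKO replicate 2 or in a fit over all 24 libraries. Akr1d1 was the only one of the 17 in the interaction, at 2.46 (SE 0.41, adjusted p = 0.00330, edgeR), beside 4.06% of all genes called in either direction and 2.2% higher. Over the list, 4 genes fell and 1 rose in Cpt2 L-/-, beside 23.8% of all genes called in either direction, and 4 fell and 2 rose in DKO, beside 16.1%. The list's median log2 fold changes were -0.11 and -0.09. In DKO against Rab30 L-/- 5 fell and 3 rose, beside 30.7% of all genes. The largest changes there were those of Serpina6 (-3.01), Akr1d1 (-2.03), Srd5a1 (-1.25) and the chaperone Hsp90aa1 (1.23), and Hsd11b1 fell by 1.19. In Rab30 L-/- and in Rab30KO 0 of 17 passed (edgeR), beside 0.479% and 0.022% of all genes called in either direction. At an unadjusted p under 0.05 there were 1 (Hsp90aa1) and 0, and 0 passed by DESeq2 or limma-voom.

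**Figure D4:**
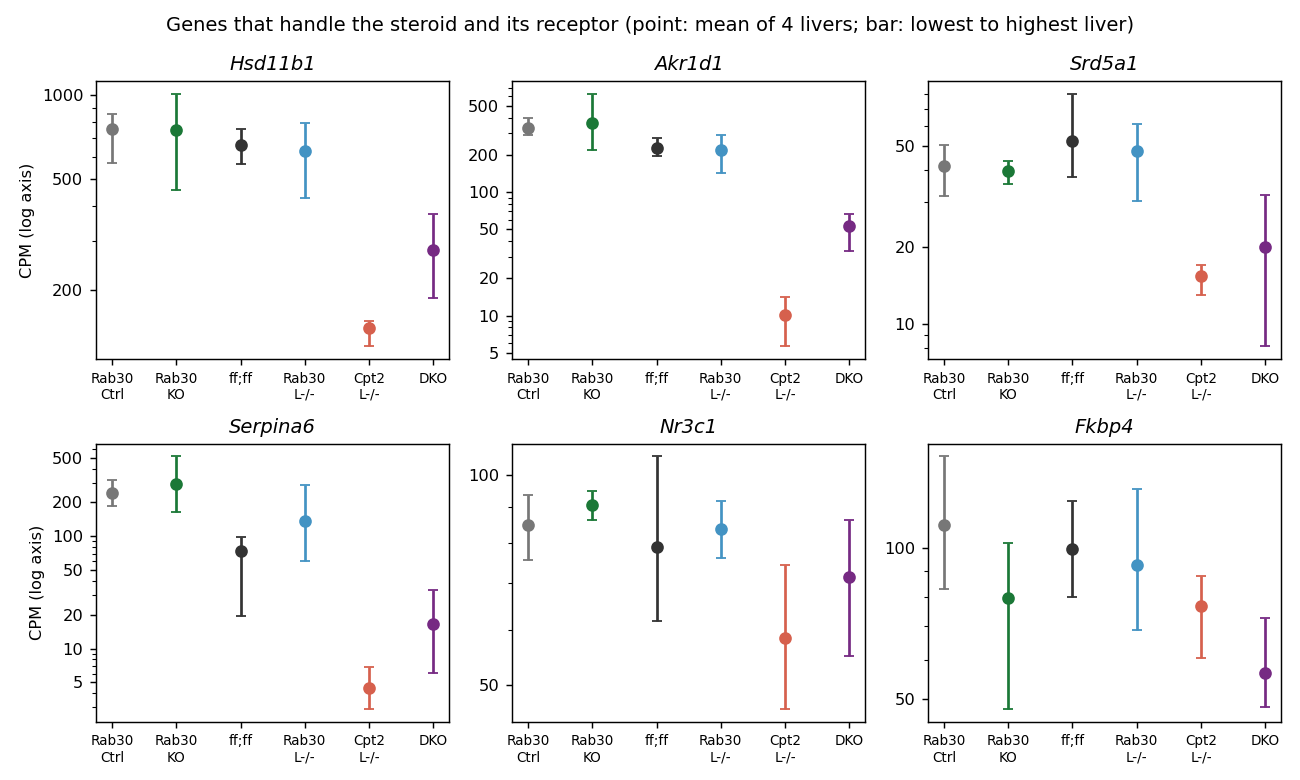
CPM on log axes of 6 genes that make, bind or clear the hormone or bind its receptor, as means of 4 livers with bars from the lowest to the highest liver. Hsd11b1 lies at 126 to 155 CPM in Cpt2 L-/- and 568 to 756 CPM in the floxed controls (ff;ff), and Nr3c1 in the floxed controls overlaps each of the 3 groups with albumin-Cre.

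In all, 30 other genes that glucocorticoids are known to induce were counted. In Cpt2 L-/- against the floxed controls 12 of 30 fell and 0 rose, beside 11.9% of all genes that fell, with a median log2 fold change of -0.83 (16 called by DESeq2 and 11 by limma-voom). Those with the largest falls were Sds, which breaks down serine (-2.81, SE 0.33, adjusted p = 0.000121, edgeR), G6pc, the last step of glucose release (-2.76, SE 0.26, adjusted p = 1.58e-05, edgeR), the lipid phosphatase Lpin1 (-2.24, SE 0.61, adjusted p = 0.0312, edgeR) and Tat, which breaks down tyrosine (-1.95, SE 0.27, adjusted p = 0.000185, edgeR). Lpin1 was at -1.41 without floxed control replicate 3 and still passed, and its call was lost without any one Cpt2 L-/- liver, without floxed control replicate 2 or with no filter on low counts. In DKO 8 of 30 fell and 0 rose, beside 8.24% of all genes that fell, with a median of -0.71 (13 called by DESeq2 and 10 by limma-voom). Sds (-2.42), Agt (-1.66), G6pc (-1.47) and Lcn2 (-1.42) led, of which Lcn2 was at -0.89 and lost its call without floxed control replicate 4, and was also lost without DKO replicate 1, 2 or 3 and in a fit over all 24 libraries (adjusted p = 0.430, edgeR). Per1, a clock gene the receptor induces, was among those that did not pass, at 76.3 ± 19.97 CPM in Cpt2 L-/- and 81.9 ± 29.8 in the floxed controls (SD, n = 4), with a log2 difference of -0.11 (SE 0.28, adjusted p = 0.814, edgeR). It was named after its values were seen.

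In Rab30 L-/- 1 of 30 fell, G6pc (-1.28, SE 0.24, adjusted p = 0.0423, edgeR), beside 0.479% of all genes called in either direction, and this call was lost without any one of Rab30 L-/- replicates 1, 2 and 4 or floxed control replicates 1, 2 and 3, by limma-voom, in a fit over all 24 libraries and with at least 10 counts asked of every library. DESeq2 called 5 of the 30 in this comparison and limma-voom 0. The list's median there was -0.46 and its range -3.23 to 3.10. In the interaction 4 of 30 were higher, G6pc (2.58), Dusp1 (1.63), Foxo1 (1.24) and Tdo2 (0.92), beside 4.06% of all genes called in either direction, as Tsc22d3 was. Of these, G6pc (SE 0.43, adjusted p = 0.00291, edgeR) was at 849 ± 235 CPM in the floxed controls, 351 ± 104 in Rab30 L-/-, 127 ± 39.5 in Cpt2 L-/- and 309 ± 127 in DKO (SD, n = 4). Dusp1 and Tdo2 were lost when 1 of many single livers was left out. In the interaction DESeq2 called 7 of the 30 and limma-voom 3, with 11 at an unadjusted p under 0.05 (edgeR). In DKO against Rab30 L-/- 6 of 29 fell, led by Sds (-2.50), Orm1 (-1.95), Agt (-1.58) and Klf15 (-0.93), and 1 rose, where 15.8% of all genes fell and 30.7% were called in either direction, so the list's share was near that of all genes. In DKO against Cpt2 L-/- 0 of 29 passed (edgeR), 4 at an unadjusted p under 0.05, 2 by DESeq2 and 0 by limma-voom, beside 2.71% of all genes. In Rab30KO 0 of 30 passed, none at an unadjusted p under 0.05 and 0 by either other tool, beside 0.022% of all genes.

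Of 13 genes of metallothionein control and of metal transporter families, not all of which carry zinc, 11 were tested. Mt3 and Mt4, the metallothioneins of brain and squamous epithelium, had 0 reads in all 24 livers, where a count of 0 allows up to 3 reads a library. Mtf1 passed in no comparison, with 21.5 CPM ± 3.36 (SD, n = 4) in the floxed controls and 16.4 ± 3.12 in Cpt2 L-/- (log2 fold change -0.40, SE 0.18, adjusted p = 0.128, edgeR). Slc39a14, a zinc importer of hepatocytes, fell from 271 ± 119 to 141 ± 20.02 CPM in Cpt2 L-/- (-0.96, SE 0.25, adjusted p = 0.0136, edgeR) and was lower in DKO than in Rab30 L-/- (-1.22, SE 0.21, adjusted p = 0.00169, edgeR). The first value was -0.60 without floxed control replicate 3 and still passed. In Cpt2 L-/- 4 of 11 fell, where 11.9% of all genes fell, with a median of -0.40 over the list. Beside Slc39a14 they were the metal exporters Slc30a10 (-1.64) and Slc30a1 (-0.61) and the metal importer Slc39a8 (-0.55). In DKO Slc30a10 (-2.26) and Slc39a8 (-0.66) fell, 2 of 11 beside 8.24% of all genes. In DKO against Rab30 L-/- Slc30a10 (-2.20) fell beside Slc39a14, 2 of 11 where 15.8% of all genes fell. None passed in Rab30KO, Rab30 L-/-, DKO against Cpt2 L-/- or the interaction (edgeR), with 0, 0, 0 and 2 at an unadjusted p under 0.05 and 0 by DESeq2 or limma-voom. Of all genes 0.022%, 0.479%, 2.71% and 4.06% were called in these comparisons.

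Whether livers of 1 genotype that were high in one member were high in another was tested over the 21 pairs of members, on log2 CPM less the group mean in 24 livers, with a permutation test of livers within groups. Of these, 2 pairs passed after Benjamini-Hochberg adjustment over the 21, 5 with DESeq2 size factors, 3 on FPKM and 0 without the 2 livers farthest from the median. Pairs with Fam107a, whose levels chose it, are a description only. They remain among the 21 in each of these counts, and neither of the 2 pairs holds Fam107a. The 2 pairs were Fkbp5 with Mt2 (Pearson's r = 0.64, permutation p = 0.000680, adjusted 0.0143; Spearman's rho = 0.67, permutation p = 0.000470, adjusted 0.00987) and Fkbp5 with Zbtb16 (r = 0.68, permutation p = 0.00379, adjusted 0.0398; rho = 0.55, permutation p = 0.0156, adjusted 0.0657). Without the 2 livers farthest from the median of Fkbp5, r fell to 0.44 and 0.48 and neither passed, so both rest in part on those livers. The 2 genes that fell together between groups, Tsc22d3 and Fkbp5, had r = 0.36 within groups (permutation p = 0.129, adjusted 0.271), and Mt1 with Mt2 had r = 0.45 (permutation p = 0.0266, adjusted 0.0930). Points from one library share its depth and scaling.

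**Figure D5:**
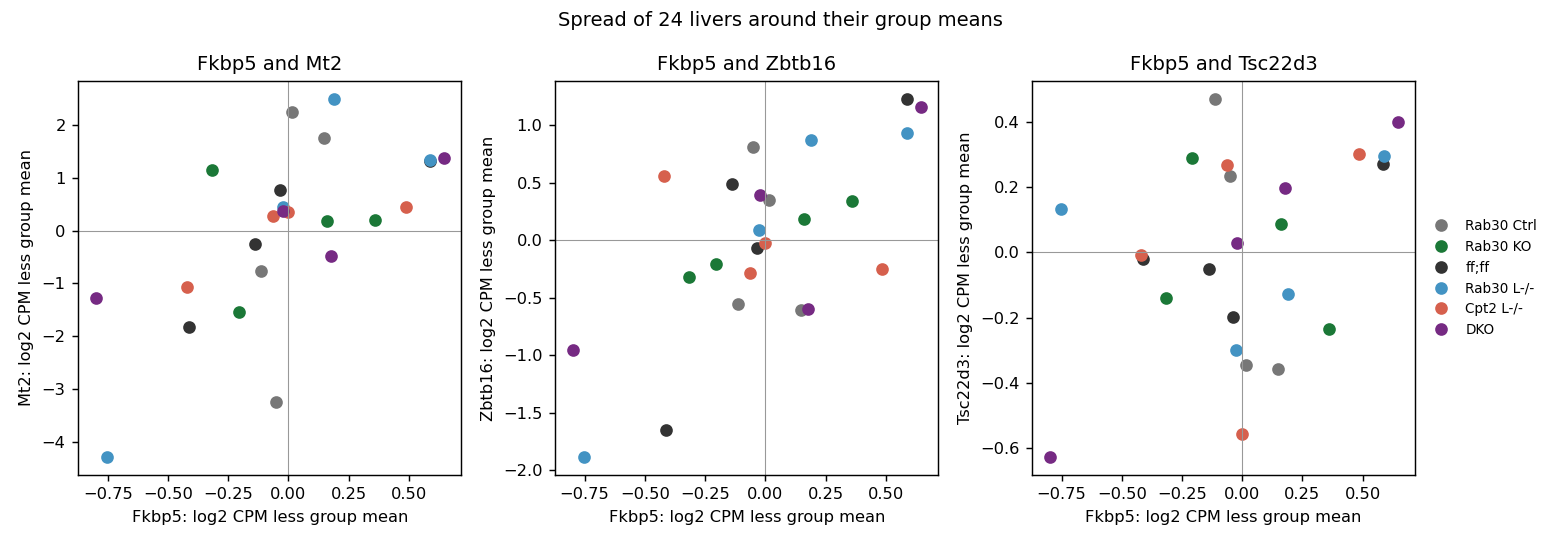
Deviation of each of 24 livers from its group mean on the log2 CPM scale, Fkbp5 on the x axes and Mt2, Zbtb16 and Tsc22d3 on the y axes. The pairs with Mt2 and Zbtb16 have r = 0.64 and 0.68, and that with Tsc22d3 has r = 0.36.

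The genes most like 3 of the members over the 24 livers were listed by Pearson's r of log2 CPM among 10021 protein-coding genes, as a description in which group differences and library depth are shared. For Fam107a they were Atp1b1 (r = 0.86), Tat (0.84), Proser2 (0.83), Ankrd33b (0.83) and Lurap1l (0.81). For Fkbp5 they were Hmox2 (0.87), Cdo1 (0.86), Ccnf (0.86), Scara5 (0.86) and Gldc (0.85). For Mt1 the values were lower, with E030018B13Rik (0.72), Pglyrp2 (0.71), Slc37a1 (0.71), Fgfr1 (0.68) and Lcn2 (0.68).

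By group mean the members did not share one order. The floxed controls were the highest group for Fam107a, Fkbp5, Tsc22d3 and Zbtb16, Rab30KO for Sgk1, and Rab30 L-/- for Mt1 and Mt2. Cpt2 L-/- was the lowest group for Fam107a, Fkbp5 and Tsc22d3, while DKO was lowest for Zbtb16, Rab30 L-/- for Sgk1, and Rab30 Ctrl for both metallothioneins. Of the 35 pairs of neighbours in these orders, 3 did not overlap, where 3.53% of such pairs did not over all 14584 genes tested in the 24 libraries. The count is a description, since the levels of Fam107a chose it. The 3 pairs were floxed controls over Rab30KO for Fam107a, and for Tsc22d3 Rab30 Ctrl over Rab30 L-/- and Rab30 L-/- over DKO.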

How the data were processed

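Total RNA of 24 fasted livers had been extracted with TRIzol and RNeasy columns and sequenced from commercially made libraries. The authors deposited raw read counts per gene and FPKM values, both for 54532 gene rows. HISAT2, DESeq2, GRCm38 and mm10 are named per the labels without their roles, and the counting program, annotation and strand setting are not given in the sources used here. The deposited tables of pairwise comparisons hold the authors' fold changes and p-values and were not used, nor was a table of normalised counts.

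Groups were taken from the labels. Each comparison of 2 groups was fitted on its own 8 libraries, and the interaction on 16, with edgeR 4.0.16 in R 4.3.3 (filterByExpr, trimmed mean of M-values, robust quasi-likelihood test, Benjamini-Hochberg adjustment over all genes tested). A gene was called at an adjusted p under 0.05 and a change of at least 1.2-fold. CPM in the text are scaled by the trimmed mean of M-values, and log2 CPM used a prior count of 2. Correlations used log2 CPM less the group mean and 100000 two-sided permutations of livers within groups (numpy 2.4.6, scipy 1.17.1, pandas 2.3.3, Python 3.11.15), and figures matplotlib 3.10.9. The fits and the correlation test were tested on simulated data.

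The alternatives were DESeq2 size factors, DESeq2 1.42.0, limma-voom (limma 3.58.1), a fit over all 24 libraries, no filter, at least 10 counts in every library, and fits without 1 library at a time. For the correlations they were DESeq2 size factors, FPKM (pseudocount 0.1) and leaving out the 2 livers farthest from the median.

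The members and the gene lists were chosen with earlier results of these data known. By rule, all 7 members were named, with Nr3c1, Hsd11b1, Mtf1 and Slc39a14, up to 4 called genes of each list and comparison with the largest change, and the 5 protein-coding genes with a mean of at least 50 counts most like Fam107a, Fkbp5 and Mt1. Fam107a had been planned as tested in Rab30 L-/- against floxed controls, DKO against Cpt2 L-/- and the interaction. Since those use livers that led to its choice, it was described there without a test and members were counted over 6. Promoter windows, 250 bases before a RefSeq start on GRCm38.p6, were found for 6 of 7 members by symbol. Of the rows, 98.0% have the coordinates of GENCODE M21.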

Additional observations from a re-analysis of the deposited data

Results flagged for a closer look

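Within each group of 4 livers and for each of the 7 genes, the gap between an extreme liver and its nearest neighbour was compared with the range of the group. Of 42 combinations of gene and group, 3 held a liver that stood apart. The levels of Fam107a chose the gene, so its 2 values are a description only. Among the other 6 genes 1 liver stood apart, and chance gives about 1 in 20 groups. Fam107a was at 157 CPM in floxed control replicate 3 and at 11.6, 17.1 and 27.8 CPM in the other 3 livers. Fam107a was also apart in DKO replicate 3, at 3.19 CPM beside 0.349, 0.704 and 0.710 CPM. Mt1 was at 493 CPM in Cpt2 L-/- replicate 3 and at 177, 181 and 220 CPM in the other 3.

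The change of Tsc22d3 from Cpt2 L-/- to DKO differed from that from floxed controls to Rab30 L-/-, a step that adds Cre as well as deleting Rab30 and joins animals not named as littermates, so these cannot be told apart. The difference of the 2 changes was 1.59 on the log2 scale (SE 0.29, adjusted p = 0.00521, edgeR interaction term), with all 4 Rab30 L-/- livers below all 4 floxed controls, and DKO overlapping Cpt2 L-/-. Rab30 L-/- and the floxed controls did not overlap for 6.38% of all genes tested.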

How the results depend on the processing

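The count of members called stayed within 1.5 times of its value in Rab30KO, Cpt2 L-/-, DKO against Cpt2 L-/- and the interaction under all alternatives run. In DKO against floxed controls it was 1 with no filter on low counts, in place of 2, and 1 to 3 when 1 liver was left out. Leaving out 1 liver gave 0 to 1 in Rab30 L-/- and 1 to 2 in DKO against Rab30 L-/- (2 without Rab30 L-/- replicate 3 or DKO replicate 3). The number of correlated pairs was 5 with DESeq2 size factors and 0 without the 2 livers farthest from the median, in place of 2. By limma-voom the log2 fold change of Mt2 turned to -1.04 in Rab30 L-/-, -0.079 in DKO against Cpt2 L-/- and 0.97 in the interaction. Without the 2 livers, r turned to -0.014 for Fam107a with Tsc22d3, 0.12 for Fkbp5 with Sgk1, -0.28 for Tsc22d3 with Mt1 and 0.38 for Sgk1 with Zbtb16. The cause was not tested.

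With 1 liver left out, log2 fold changes of uncalled or untested members crossed zero. In Rab30KO they ran from -0.22 to 0.029 for Fkbp5, -0.030 to 0.27 for Tsc22d3 and -0.032 to 0.22 for Sgk1. Mt2 ran from -0.50 to 0.86 in Rab30 L-/-, -0.50 to 0.45 in DKO against Cpt2 L-/- and -0.87 to 0.65 in the interaction. Zbtb16 ran from -0.73 to 0.036 in DKO against Cpt2 L-/- and -0.17 to 0.67 in the interaction, and Fam107a from -1.19 to 0.14 in DKO against Rab30 L-/-.

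Of 40 calls of named list genes 27 were kept under all alternatives, 13 were lost under at least 1 and 0 changed sign. Those lost were Srd5a1 (DKO against floxed controls and against Rab30 L-/-), Serpina6, Orm1 and Slc30a10 (DKO against Rab30 L-/-), Lcn2 (DKO), Lpin1, Slc30a1 and Slc39a8 (Cpt2 L-/-), G6pc (Rab30 L-/-), Hsd11b1 (DKO against Cpt2 L-/-), and Dusp1 and Tdo2 (interaction). Counts of these lists moved by over 1.5 times in 44 of 318 settings. Fam107a had 2 to 10 reads in Cpt2 L-/- libraries, where depth limits its level. No paired analysis was possible because the groups share no replicate numbers in the labels, which name littermate controls without saying which animals shared a litter.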
